A study of Mus musculus with 2 samples.

Results

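Small nucleolar RNA (snoRNA) host genes were described in the left cerebral cortex of the mouse. The group was given as 9 gene symbols, Gas5, Snhg1, Snhg3, Snhg5, Snhg6, Snhg8, Snhg11, Snhg12 and Snhg17, and all 9 were found among the 55536 genes of the deposited tables. The tissue came from females of the hybrid B6CASTF1/J, whose parents are C57BL/6J and CAST/EiJ, at 14 days of age. Total RNA reduced in ribosomal RNA was sequenced from 300 ng per library with ERCC spike-ins, synthetic transcripts of known amount. The data hold 2 libraries of 1 group, labelled biological replicates 1 and 2, and no second condition. The shared description names 3 females, the tissue entry of replicate 1 names 3 females, and the entry of replicate 2 speaks of 1 female and carries a different number. Whether tissue of several mice was pooled is not stated, so the spread between the libraries may be partly technical.

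A snoRNA host gene is transcribed by RNA polymerase II and spliced, and the snoRNAs are trimmed out of its introns after splicing. Box C/D snoRNAs guide 2'-O-methylation and box H/ACA snoRNAs guide pseudouridylation of ribosomal RNA, and a few of them act in cleavage of the ribosomal RNA precursor instead. The spliced exons of many noncoding hosts carry short reading frames and are removed by nonsense-mediated decay, so a host can be transcribed strongly and leave little spliced RNA. Several hosts begin with a run of pyrimidines (5' TOP), as ribosomal protein genes do.

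Each library held 32.01M to 33.36M expected counts in genes. Markers of excitatory cortical neurons (6 genes, summed at 1918 and 1843 TPM in replicates 1 and 2) and of astrocytes (4 genes, 1556 and 1415 TPM) made up the largest of the marker sums, and both are cell types of the labelled tissue. TPM values are counts divided by a transcript's effective length and scaled to the same total in every library. The libraries also differed in genes of other cell types. The 5 oligodendrocyte markers fell from a sum of 1230 to 679 TPM and the 5 striatal neuron markers from 204 to 124 TPM. The 4 globin genes of blood rose from 841 to 1258 TPM. The 5 choroid plexus markers stood at sums of 2.33 and 6.64 TPM. Only 1 of those 5 was at 1 TPM or more in both libraries. By the test described below 4 of the 5 were called higher, beside 8.88% of all tested genes. In bulk tissue, fewer cells of a type and less RNA per cell cannot be told apart.

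The members lie on 6 chromosomes in the mm10 assembly with GENCODE M21 annotation. They are Gas5 (chr1:161034422-161038539, plus strand), Snhg6 (chr1:9941959-9944118, minus), Snhg11 (chr2:158375638-158386145, plus), Snhg17 (chr2:158353700-158361580, minus), Snhg8 (chr3:123507552-123508404, minus), Snhg3 (chr4:132348014-132353686, minus), Snhg12 (chr4:132308623-132311024, plus), Snhg5 (chr9:88521050-88522929, minus) and Snhg1 (chr19:8723475-8726443, plus). Snhg11 and Snhg17 are neighbours on opposite strands, 14057 nt apart, and so are Snhg3 and Snhg12, 36989 nt apart. Snhg3 shares its strand and 5592 nt with Rcc1, a nucleotide exchange factor for the nuclear GTPase Ran, so reads of introns in that stretch cannot be assigned to either gene alone. Gas5 overlaps the antisense gene Zbtb37 over 428 nt and Snhg6 overlaps the antisense gene Mcmdc2 over 127 nt. Whether strand was used in the counting is not given, so reads in those stretches are uncertain. GENCODE M21 classes Snhg11 as protein-coding and the other 8 as noncoding.

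The annotation places 34 snoRNA identifiers inside the members on the same strand. Gas5 holds 10 of them, Snhg1 8, Snhg12 5, Snhg17 3, Snhg3, Snhg5 and Snhg11 2 each, and Snhg6 and Snhg8 1 each. A snoRNA can have more than 1 identifier, as Snord80 and Snora16a do. The sequences below show the cargo of 4 hosts. They are the reference sequences of the annotated transcripts on mm10, not of the CAST allele, and are written 5' to 3' with T for U. Capitals mark the conserved boxes found by exact match, C (TGATGA) and D (CTGA) or H (ANANNA) and ACA. Snora73a (chr4:132352775-132352979, minus strand) and Snora73b (chr4:132352322-132352526, minus strand), the U17 RNAs of Snhg3, are H/ACA RNAs that act in processing of the ribosomal RNA precursor, and are shown because they held most of the reads described below.
Snora73a: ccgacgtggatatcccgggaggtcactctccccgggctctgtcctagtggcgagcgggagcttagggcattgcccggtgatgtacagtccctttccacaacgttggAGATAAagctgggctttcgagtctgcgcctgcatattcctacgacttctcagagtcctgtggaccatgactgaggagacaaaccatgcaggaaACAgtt
Snora73b: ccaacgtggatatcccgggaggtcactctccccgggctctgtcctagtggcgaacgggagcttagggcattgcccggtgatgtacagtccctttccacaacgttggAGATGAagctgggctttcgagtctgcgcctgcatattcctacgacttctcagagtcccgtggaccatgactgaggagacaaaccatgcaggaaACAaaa
Snora61 (chr4:132310240-132310369, plus strand) is an H/ACA RNA of Snhg12.
Snora61: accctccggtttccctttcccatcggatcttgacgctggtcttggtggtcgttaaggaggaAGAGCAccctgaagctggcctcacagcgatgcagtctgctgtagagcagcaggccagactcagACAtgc
Snord22 (chr19:8725866-8725991, plus strand), the U22 RNA after which Snhg1 was first named the U22 host gene, acts in 18S ribosomal RNA processing. Only a D box was found by exact match.
Snord22: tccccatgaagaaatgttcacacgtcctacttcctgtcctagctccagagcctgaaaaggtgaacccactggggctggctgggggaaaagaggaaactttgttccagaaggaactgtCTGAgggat
Snord50a (chr9:88521529-88521600, minus strand) is a C/D RNA of Snhg5 and stands for the short class that the deposited tables could not quantify.
Snord50a: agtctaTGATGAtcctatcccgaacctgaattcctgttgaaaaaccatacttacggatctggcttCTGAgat

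Snora73a and Snora73b were identical at 198 of 205 positions (96.6%). The 7 substitutions, counted from 1 at the 5' end with the base of Snora73a first, were G3A, G54A, A111G, T164C, G203A, T204A and T205A. A111G lies inside the marked H box. Most of each molecule is therefore shared, and the division of reads between the pair is uncertain.

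Host RNA levels spanned a wide range, with Snhg11 far above the rest. Snhg11, a host transcript known to be enriched in neurons, was at 175 and 269 TPM in replicates 1 and 2 (222 ± 65.8, SD, n = 2). Gas5, first described as a transcript that accumulates in growth-arrested cells, was at 63.9 and 60.0 TPM (61.9 ± 2.76). Snhg11 alone held 51.6% and 62.2% of the members' summed TPM, and 89.1% and 92.5% of their expected counts, its leading transcript being the longest among the members' leading transcripts.

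The other 7 hosts lay between 3.95 and 22.5 TPM. Snhg6, the host of Snord87, was at 22.2 and 22.5 TPM (22.3 ± 0.240). Snhg8, the host of Snora24, was at 17.8 and 20.4 TPM (19.1 ± 1.80). Snhg12, the host of Snora44 and Snora61, was at 16.1 and 18.2 TPM (17.1 ± 1.499). Snhg8 and Snhg12 overlapped in their ranges over the libraries and Snhg6 stood just above them. Snhg5, the host of Snord50a and Snord50b, was at 15.7 and 12.4 TPM (14.1 ± 2.38). Snhg3, the host of both Snora73 RNAs, was at 13.1 and 14.6 TPM (13.9 ± 1.07). Those hosts overlapped as well. Snhg1 was at 10.3 and 11.1 TPM (10.7 ± 0.580), and Snhg17 was lowest at 5.43 and 3.95 TPM (4.69 ± 1.05). The median over the 9 members was 16.1 and 18.2 TPM, beside 13.6 and 14.4 TPM over the 14757 genes at 1 TPM or more in both libraries. Snhg11 stood at percentile 97.5 of those genes, Gas5 at 86.6, and Snhg17 at 24.1. Most host genes were thus middling transcripts of this tissue.

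The second deposited transcript table, a separate quantification, gave another order below the top pair. Snhg11 (249 and 394 TPM) and Gas5 (126 and 121 TPM) stayed first and second, and Snhg17 (10.8 and 6.80 TPM) stayed last. Snhg1 moved from rank 8 to rank 3, at 32.96 and 33.83 TPM, 3.12 times its mean in the first table. Snhg8 moved from rank 4 to rank 8, at 16.1 and 16.4 TPM, and was the single member with a lower mean in the second table (0.851 times). The tables assume different fragment lengths: the length minus the effective length was 99 nt in the first tables and 341 and 347 nt in the second. That difference weighs most on short transcripts. The assigned counts differed as well. Snhg8 had 139 and 156 in the first table and 45 and 50 in the second. Snhg1 had 201 and 189 in the first and 239 and 222 in the second. The part of either difference in the changes of rank was not tested. The authors' deposited interval for the TPM of Snhg1 in replicate 1, 10.9 to 15.9, did not contain the deposited TPM value of 10.3. The same held for Snhg1 in replicate 2 (11.11 to 16.6, against 11.10) and for Snhg11 in replicate 2 (254 to 266, against 269). The order of Snhg1 against the other low hosts is therefore not settled by these files.

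**Figure D1:**
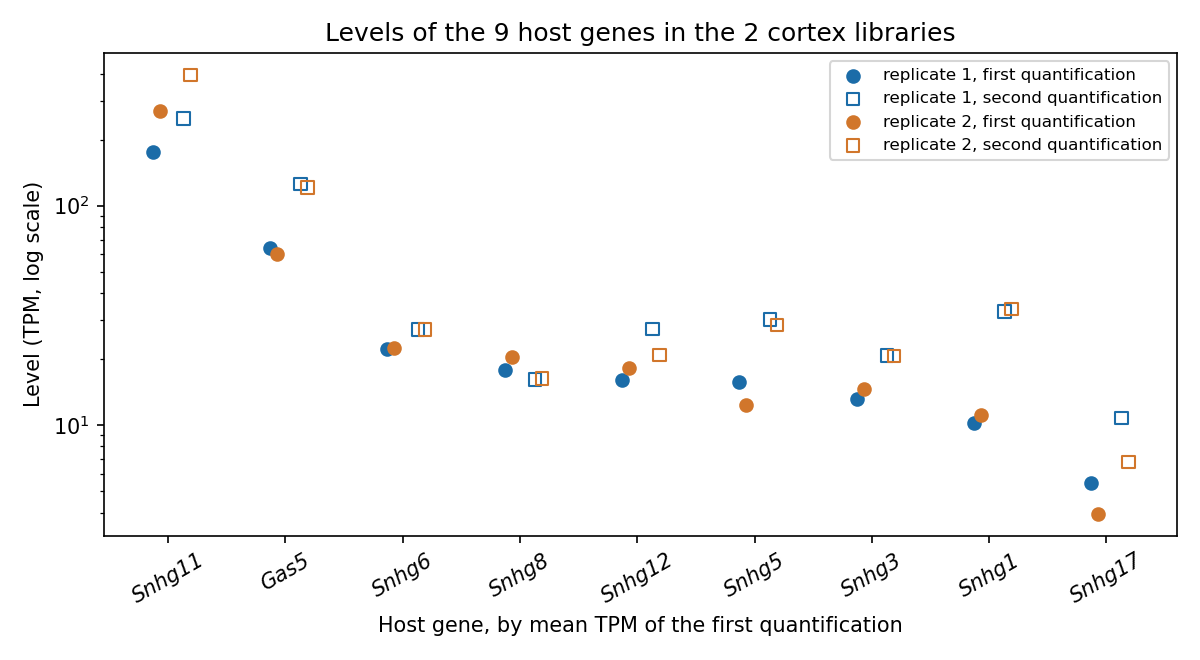
Level of each host gene in TPM (log axis) in replicate 1 (blue) and replicate 2 (orange), by the first (filled circles) and second (open squares) quantification; each point is 1 library. Snhg11 and Gas5 lie above the other 7 genes in both, and Snhg1 differs most between the quantifications, at 10.3 and 11.1 against 32.96 and 33.83 TPM.

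The libraries were then compared gene by gene, as the design has no second condition. The test takes counting error alone, so it compares these 2 libraries and says nothing of other mice. Of the 9 members, Snhg11 was higher and Snhg5 lower in replicate 2, and 7 were not called. Called means an adjusted p under 0.05 in a two-sided exact binomial test with Benjamini-Hochberg adjustment over 18887 genes. That test called 20.3% of all genes, 8.88% higher and 11.4% lower in replicate 2, so 2 calls among 9 members lie near the background.

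Snhg11 had 19120 expected counts in replicate 1 and 28843 in replicate 2. Its ratio was 1.51-fold (95% interval 1.48 to 1.54, counting error only), with a log2 ratio of 0.59 ± 0.01 (counting SE) and an adjusted p too small to be represented. At such counts almost any difference passes: of the 488 genes with mean counts of at least 10000, a bound chosen after seeing the data, 80.3% were called. The size of the change was less common. Only 3 of those 488 genes, Snhg11 included, differed by as much in either direction, and no other was as much higher. All 5 Snhg11 transcripts had a higher TPM in replicate 2 in the first table. Snhg11-201, the leading one, was 1.59-fold higher (147 and 234 TPM), and the other 4 ranged from 1.11-fold for Snhg11-203 to 1.36-fold for Snhg11-202. The deposited intervals of the libraries overlapped for Snhg11-203, Snhg11-204 (5.82 to 15.2 and 6.85 to 17.8) and Snhg11-205 (3.11 to 7.35 and 4.14 to 9.03). Overlapping transcripts divide the same reads, so these are not 5 separate observations. In the second table Snhg11-201 was 1.61-fold higher, and Snhg11-203 was listed at 0 in replicate 2.

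Snhg5 had 298 and 224 expected counts, a ratio of 0.752-fold (95% interval 0.630 to 0.898, counting error only). Its log2 ratio was -0.39 ± 0.13 (counting SE), with an adjusted p of 0.00981 by the exact binomial test. Of the 6355 tested genes with mean counts in the range of the 8 lower hosts, 16.5% were called. A call at that depth was therefore common.

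For the other 7 hosts no difference was detectable at this depth. Gas5 had 945 and 935 counts, and its interval of 0.904- to 1.08-fold was the narrowest among them. Snhg12 had 261 and 292 counts (1.12-fold, 0.944 to 1.33), Snhg6 had 189 and 192 (1.02-fold, 0.827 to 1.25), and Snhg1 had 201 and 189 (0.941-fold, 0.767 to 1.15). Snhg17 had 199 and 212 counts (1.07-fold, 0.874 to 1.30), Snhg8 had 139 and 156 (1.12-fold, 0.888 to 1.42), and Snhg3 had 113 and 124 (1.10-fold, 0.844 to 1.43). These intervals leave room for changes of up to 1.43-fold. Snhg17 had more counts but a lower TPM in replicate 2, as its mean transcript length in the authors' deposited table went from 1804 to 2711 nt. Snhg1 had fewer counts but a higher TPM, with its mean length going from 1010 to 927 nt.

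The median log2 ratio over the 9 members was 0.09, and 0.05 without Snhg11. Over all tested genes it was 0.00, with 5th and 95th percentiles of -0.35 and 0.45. Snhg11 and Snhg5 lay outside that band and the other 7 inside it. Both calls held under each scaling of the libraries and in the second table, where 20.2% of genes were called. With edgeR's exact test and an assumed dispersion of 0.01, which adds a spread between animals to the counting error, no member was called, beside 0.964% of all genes (Snhg11 adjusted p = 0.225, Snhg5 adjusted p = 1). By that test 1 member had an unadjusted p under 0.05. The scaling also moved the split of all calls, from 1678 higher and 2152 lower with TMM (trimmed mean of M-values) library sizes to 2733 and 1145 with total gene counts and 2570 and 1229 with spike-in counts.

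**Figure D2:**
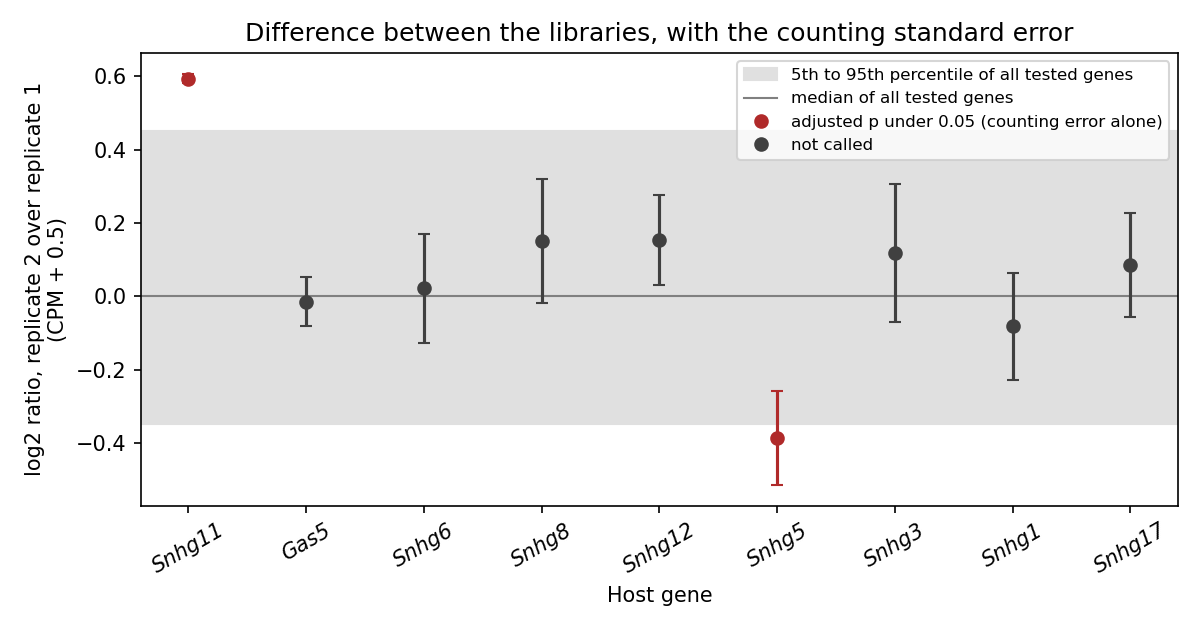
Log2 ratio of replicate 2 over replicate 1 on the scale of CPM + 0.5 for each host gene, with bars of 1 counting standard error; grey band, 5th to 95th percentile of all 18887 tested genes. Snhg11 (0.59) and Snhg5 (-0.39), in red, lie outside the band, and the other 7 lie inside it.

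The neighbouring hosts were set side by side. Snhg11 stood at 0.59 and Snhg17, on the other side of the intervening 14057 nt, at 0.09 ± 0.14 (log2, counting SE). Snhg12 and Snhg3 stood at 0.15 ± 0.12 and 0.12 ± 0.19. Differences between these ratios were not tested.

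Genes around the host family were read from fixed lists. Among 8 other noncoding hosts in the table, 7 were tested and 1 was called. That was Snhg14, the host of the Snord115 and Snord116 arrays of the imprinted Snrpn locus, with 511 and 549 TPM and a log2 ratio of 0.08 ± 0.02 (counting SE), and it exceeded Snhg11 in level. The 26 protein-coding hosts were mostly ribosomal proteins and translation factors with snoRNAs in their introns. Of these, 9 were lower and 1 higher, beside 11.4% and 8.88% of all tested genes, with a median log2 ratio of -0.05. Some, Hspa8 and Eef2 included, had mean counts above 10000, a depth at which 80.3% of genes were called in either direction. With total gene counts as the scale 0 of the 26 were lower and 5 higher, and with spike-in counts also 0 and 5. No direction can therefore be given for these hosts. Hspa8, a heat shock cognate chaperone, was highest of them at 1008 and 1036 TPM, and Rps12, a ribosomal protein, had the largest called ratio (0.30 ± 0.07).

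Proteins that assemble snoRNA particles or act in nonsense-mediated decay gave few calls. None of 16 snoRNP proteins and assembly factors was called by the exact binomial test with Benjamini-Hochberg adjustment (2 at an unadjusted p under 0.05, and 2 called higher with total gene counts), with a median log2 ratio of 0.05. Nop56, a core protein of C/D particles and itself a snoRNA host, was highest at 61.6 and 68.0 TPM. Of 10 nonsense-mediated decay factors, Smg1, the kinase of Upf1, was higher (0.11 ± 0.03), and the median log2 ratio of the list was 0.00. By contrast, 8 of 9 long noncoding RNAs known to stay mostly in the nucleus were higher, beside 8.88% of all tested genes. Their median log2 ratio was 0.34. Several of them, Malat1 and Meg3 included, had mean counts above 10000, a depth at which 80.3% of genes were called in either direction. With total gene counts 9 of 9 were higher. By edgeR's exact test at the assumed dispersion 0 of 9 were (2 at an unadjusted p under 0.05). Malat1 was at 2781 and 3573 TPM, Meg3 at 1073 and 1566 TPM (log2 ratio 0.54 ± 0.01), and Kcnq1ot1 had a log2 ratio of 0.57 ± 0.03. The ratio of Snhg11 lay above each of these values, and those of the other 8 hosts lay below the median of that list. Their part in the Snhg11 difference, like that of the cell type markers given above, was not tested.

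The members have 86 annotated transcripts, and 42 of these, in 6 genes, are classed as retained-intron transcripts. Such a transcript keeps sequence that other transcripts of the gene splice out, which in a host gene can include the snoRNA. Gas5 has 20 of them, Snhg1 14, Snhg5 3, Snhg11 and Snhg17 2 each, and Snhg8 1. The annotation of Snhg3, Snhg6 and Snhg12 has none, so no share could be given for those hosts. Of the 86 transcripts, 20 were at 0 TPM in both libraries by the first quantification and 27 by the second.

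By TPM of the first quantification, retained-intron transcripts took a large share of Gas5 and Snhg5 RNA and a small share of Snhg8 and Snhg11 RNA. The share of Snhg1 depended on the measure, and by expected counts it was 58.7% and 64.0%. As a share of the gene's TPM, retained-intron transcripts made up 46.7% and 53.9% of Gas5 in replicates 1 and 2 (50.3 ± 5.09, SD, n = 2). In Snhg5 they made up 43.7% and 51.8% (47.8 ± 5.68). In Snhg1 they made up 28.7% and 38.4%, and in Snhg17 19.5% and 43.5%. Snhg11 stood at 11.0% and 9.05% and Snhg8 at 3.82% and 6.63%. Over the 7602 genes at 1 TPM or more that have such a transcript, the median was 9.26%, with quartiles of 3.68% and 20.4%. Gas5 was at percentile 95.7 of these genes, Snhg5 at 94.96, Snhg1 at 88.5 and Snhg17 at 87.2. Snhg11 was at 52.4 and Snhg8 at 33.1. These are reads assigned among overlapping transcripts, and unspliced precursor RNA in total RNA would be assigned to them as well.

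In 5 of the 6 hosts the share was higher in replicate 2, and in Snhg11 it was lower. The difference was largest in Snhg17, at 24.1 percentage points. Over all 7602 genes 68.0% had a higher share in replicate 2, with a median difference of 1.09 points, so the direction was common to most genes. By expected counts, retained-intron transcripts held 622 of 945 reads of Gas5 in replicate 1 (65.8%, Wilson 95% interval 62.7 to 68.8) and 685 of 935 in replicate 2 (73.3%, 70.3 to 76.0), intervals that did not overlap. Those of Snhg11 did not overlap either, at 690 of 19120 (3.61%, 3.35 to 3.88) and 873 of 28843 (3.03%, 2.84 to 3.23). Those of Snhg1, Snhg5, Snhg8 and Snhg17 overlapped. These intervals cover counting error only and not the assignment to transcripts. How many of all 7602 genes had intervals that did not overlap was not computed, so the 2 cases have no background.

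In the second table the share of Snhg1 was 71.3% and 80.7%, against 28.7% and 38.4% in the first. Snhg17 had 20.3% and 52.3%, again higher in replicate 2. Gas5 had 35.4% and 38.3%, Snhg8 9.83% and 17.1%, and Snhg11 5.34% and 4.98%. Among the 7602 genes Snhg1 stood at percentile 99.1 by the second table, Snhg5 at 95.1, Gas5 at 89.4 and Snhg17 at 89.1. Snhg8 stood at 59.5 and Snhg11 at 32.1. By TPM of the second table Snhg5 changed direction between libraries, with 56.1% and 43.3%. By the estimated counts of that table its share was 53.6% and 54.1%.

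**Figure D3:**
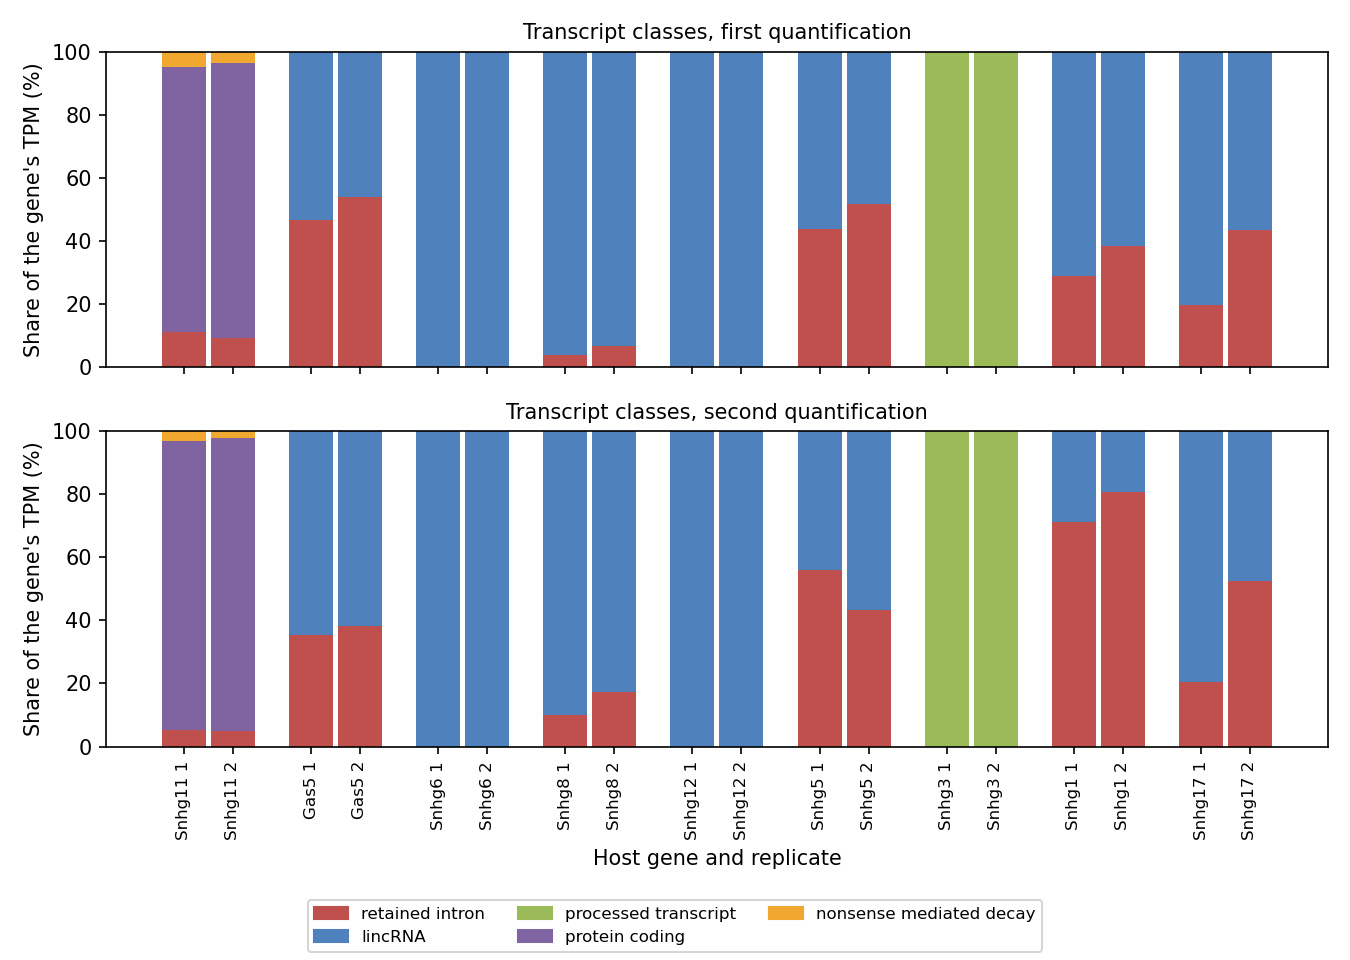
Share of each host gene's TPM by transcript class, as stacked bars for replicate 1 and replicate 2, in the first (top) and second (bottom) quantification. Retained-intron transcripts (red) take 46.7% and 53.9% of Gas5 in the first and 35.4% and 38.3% in the second; those of Snhg1 take 28.7% and 38.4% against 71.3% and 80.7%.

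A single transcript held most of the TPM of 4 hosts in both libraries by the first table. Snhg8-201, with 3 exons and 448 nt, held 92.1% and 91.4% of Snhg8, and Snhg11-201, with 5 exons and 5864 nt, held 84.0% and 87.3% of Snhg11. Snhg6-203 held 80.6% and 73.7% of Snhg6. Snhg1-211, with 55.1% and 53.4%, was the fourth. Its majority was uncertain: by expected counts Snhg1-211 held 30.6% and 32.6%, and its deposited TPM interval in replicate 1 was 0.806 to 6.24. The second table gave it 4.96% in replicate 1 and 2.1e-07% in replicate 2. Snhg12-206 held 62.1% and 49.5% of its gene, and Snhg5-201 52.8% and 42.9%. In Snhg3 the lead was shared, with 45.1% and 51.7% in Snhg3-202, 37.3% and 30.1% in Snhg3-204 and 14.5% and 15.9% in Snhg3-201. Gas5 was divided further, with 37.4% and 30.4% in Gas5-210, a spliced RNA of 11 exons and 557 nt, and 15.9% and 15.5% in Gas5-224 (12 exons). In Snhg17 the lead by TPM differed between the libraries. Snhg17-205 led replicate 1 with 31.1% and was listed at 0 in replicate 2, where the single-exon Snhg17-209 led with 33.7% (20.6% in replicate 1). By expected counts Snhg17-205 held only 15.6 counts (7.85%) in replicate 1, and Snhg17-209 led both libraries with 36.7% and 39.2%.

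Only 3 hosts (Snhg3, Snhg8 and Snhg11) had the same leading transcript in both libraries and both tables. By the mean of the libraries, the second table kept the leading transcript of 6 hosts (Gas5, Snhg5 and Snhg17 besides those) and changed that of 3 (Snhg1, Snhg6 and Snhg12). Snhg1-213, a retained-intron transcript of 495 nt listed at 0 in the first table, led Snhg1 with 50.9% and 51.1%. Snhg6-205 led Snhg6 with 58.5% and 70.0%. In the other 4 hosts the lead of the second table differed between the libraries. Snhg12-207 led Snhg12 in replicate 1 (40.3%, and 7.95% in replicate 2) and Snhg12-204 in replicate 2 (28.1%, and 21.2% in replicate 1). Gas5-203 led Gas5 in replicate 1 with 34.6%, above Gas5-210. Snhg5-203 led Snhg5 in replicate 2 with 35.4%, against 21.3% for Snhg5-201, but from 21.2 estimated counts against 65.8. Snhg17-202 led Snhg17 in replicate 1 with 20.8%, against 16.7% for Snhg17-209. That lead in TPM rested on 3 estimated counts, against 87.8 for Snhg17-209. Those leading transcripts outside the shares named for the first table were chosen after their values were seen. Snhg3-202 took 99.96% and 100% of Snhg3, where Snhg3-201 and Snhg3-204 were listed at 0. Snhg11-201 led Snhg11 in both tables, and nonsense-mediated decay transcripts of Snhg11 held 4.998% and 3.69% in the first and 3.10% and 2.07% in the second.

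Mature snoRNAs were almost outside the reach of these tables. All 21 identifiers under 100 nt (60 to 87 nt), among them the 10 of Gas5 and both Snord50 RNAs printed or named above, had an effective length of 0 in the first tables and could receive no value there. Their 0 says nothing of their abundance. Of the 13 longer identifiers, 8 had counts in both libraries and 5 had at least 10 counts in both. In the second table all 34 were listed at 0.

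Nearly all these reads belonged to the U17 RNAs whose sequences are given above. Snora73b had 1078 and 823 expected counts (474 and 378 TPM), and Snora73a had 908 and 710 (399 and 326 TPM). Together they had 1986 and 1532 counts, of 2085 and 1619 over all 34 identifiers. Both were lower in replicate 2 by the exact binomial test with Benjamini-Hochberg adjustment, Snora73b with a log2 ratio of -0.38 ± 0.07 (counting SE, adjusted p = 1.3e-07) and Snora73a with -0.35 ± 0.07 (adjusted p = 1.5e-05). Given their shared sequence these are not separate observations. Snhg3, in which they lie, had a log2 ratio of 0.12 ± 0.19 and was not called, and Rcc1, which also spans them, was at 5.72 and 6.61 TPM. Snora73a overlaps an exon of Snhg3-202, the leading transcript of Snhg3, so reads there cannot be assigned to host or snoRNA alone. The values of Snhg3 and Snora73a are therefore not fully separate. The TPM of Snora73b was 36.1 and 25.8 times that of Snhg3. Of the 63 snoRNA and scaRNA identifiers tested in the whole table, this pair included, 11 were lower and 1 higher, with a median log2 ratio of -0.15. Over all tested genes 11.4% were lower and 8.88% higher, 20.3% in either direction.

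The other hosts had few snoRNA reads. Snord22, the RNA of Snhg1 with the D box printed above, had 47.2 and 38.2 counts, and its log2 ratio of -0.22 ± 0.31 was not called. Snora44 of Snhg12 had 23.5 and 11.0 counts and Snora61 of the same host 8.12 and 10.4. Gm23925 of Snhg17 had 12.3 and 14.9 counts, and Gm25129 of Snhg11 had 7 and 12, so the highest host had a barely counted snoRNA. Snora24 of Snhg8 had 1.52 and 0.120 counts. A read inside a snoRNA can also come from the host's precursor: 24 of the 34 identifiers overlap an exon of a retained-intron transcript of their host, 31 an exon of any host transcript, and 2 an exon of its leading transcript.

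**Figure D4:**
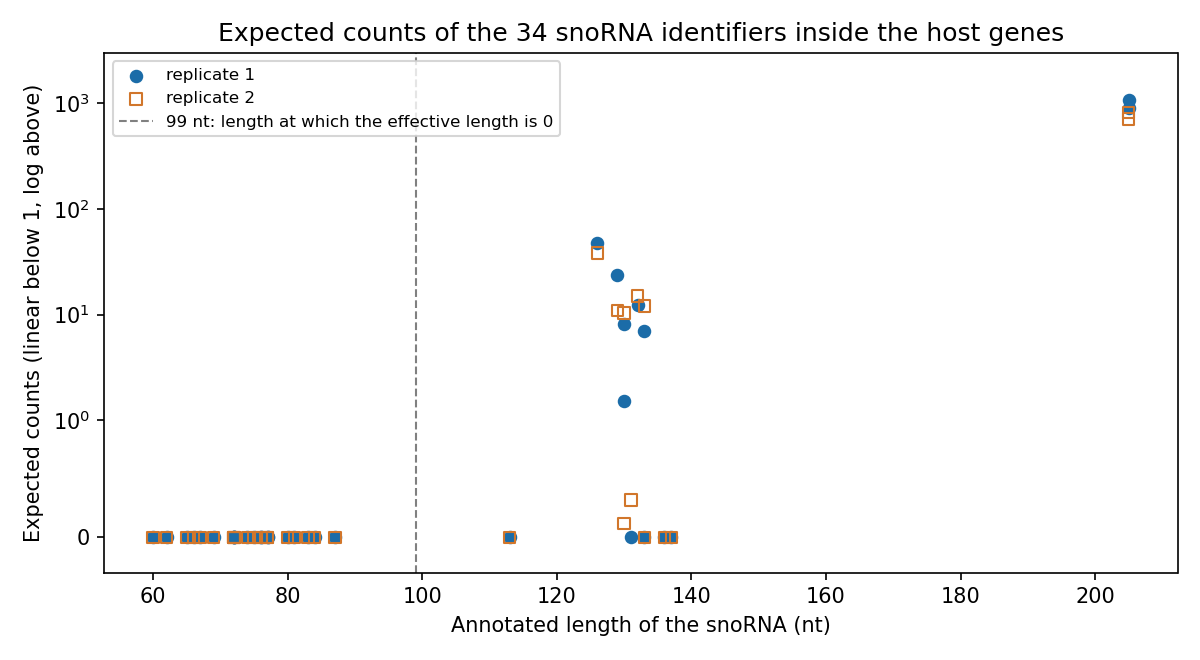
Expected counts (linear below 1, log above) of the 34 snoRNA identifiers inside the host genes against annotated length, in replicate 1 (filled circles) and replicate 2 (open squares); the dashed line marks 99 nt. All 21 identifiers to the left of the line are at 0, and the pair at 205 nt, Snora73a and Snora73b, has 710 to 1078 counts.

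Promoters of 8 members, all but Snhg6, were matched by symbol in RefSeq (GRCm38.p6, the assembly also called mm10). Each covers 250 bases before to 50 after a start, and some genes have several. A run of at least 7 pyrimidines was searched on the coding strand. It had to begin within 10 bases of the start, and to open with C or span the start. Snhg8 and Snhg12 had one, 2 of 8, beside 11.97% of all 27025 genes with a promoter. Runs of 5 or more were found in 5 of 8 (also Gas5, Snhg3 and Snhg17), beside 29.6% of all genes. The windows of Snhg12 (chr4:132308658-132308702, plus strand), Snhg8 (chr3:123508312-123508356, minus strand) and Gas5 (its start with a run, chr1:161035146-161035190, plus strand) show these starts, from 20 bases before the start to 25 bases from it, with the run in capitals.
Snhg12: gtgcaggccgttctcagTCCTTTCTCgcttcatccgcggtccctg
Snhg8: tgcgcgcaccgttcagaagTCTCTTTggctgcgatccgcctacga
Gas5: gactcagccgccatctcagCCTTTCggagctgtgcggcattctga
The runs were 9, 7 and 6 bases long and began 3, 1 and 1 bases before the annotated start. The letters TATAAA, on either strand of the 300 bases, were found in 4 of 8 members (Snhg1, Snhg3, Snhg5 and Snhg8), beside 15.7% of all genes. CACGTG, searched on both strands, was found in 0 of 8, beside 8.09%. A match is a description of the letters and not a site.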

How the data were processed

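Gene-level and transcript-level tables of 2 total RNA libraries from the left cerebral cortex were used, on mm10 with GENCODE M21 per the deposited readme files. For tools and strand settings, nothing is given in the sources used here. The expected counts are estimated reads and TPM is scaled by the authors within a library over all rows, per the file headers; interval bounds are the authors' deposited values, their level not stated. The second transcript table holds estimated counts and TPM deposited by the authors, here summed per gene. ERCC, numbered and other non-gene rows (0.359% and 0.361% ERCC; 1.49e-05% and 1.51e-05% numbered) were left out of gene totals.

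Expected counts were rounded, and each gene with at least 10 counts in 1 or more libraries (18887 genes) was tested by a two-sided exact binomial test (scipy 1.17.1) with TMM library sizes (edgeR 4.0.16, R 4.3.3) and Benjamini-Hochberg adjustment. A fit with residual degrees of freedom was not possible with 1 library on each side. Log2 ratios are of CPM + 0.5, which understates changes of low genes; SEs are counting errors of the counts alone. Counts of all genes were also simulated with counting error alone, which the test itself assumes, and the filter of 10 counts was applied to the simulated counts. The test then called 52% of genes changed 1.5-fold, 74% at 2-fold, 94% at 4-fold and 90% at 8-fold, and 6 of 18629 unchanged genes. These rates therefore do not cover spread between libraries beyond counting error. The common biological coefficient of variation from edgeR with both libraries as 1 group was 0.0883.

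All 9 members are named. From each list up to 3 genes by mean TPM and up to 3 called genes by size of ratio could be named; from the transcripts, the leading one and others with at least 10% in both libraries; from each host, its highest snoRNA. Snora24, Snora61 and Snora73a were named outside this rule, after their values were seen. Likeness of pattern to other genes was not computed with 2 libraries. Members and lists were chosen with earlier results of these data known. Sequences came from GENCODE M21 transcripts and RefSeq promoters. Alternatives were other scalings (DESeq2 1.42.0 size factors, total counts, spike-ins), count filters, added CPM, an assumed dispersion, the second table and other motif lengths. One result of the nonsense-mediated decay list is not reported here.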

Additional observations from a re-analysis of the deposited data

How the results depend on the processing

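The number of members called stayed at 2 with total gene counts, spike-in counts, DESeq2 size factors, the second table, no filter and a filter of 100 counts, and was 0 with edgeR's exact test at an assumed dispersion of 0.01; adding 0.1 or 1 CPM changes only the ratios and cannot change a call. Ratios of uncalled members changed sign in 4 cases: Gas5 to 0.043 with total gene counts and 0.037 with spike-in counts, and Snhg3 to -0.10 and Snhg12 to -0.011 in the second table. The median level of the members, 17.1 TPM, was 27.3 TPM in the second table and 31.5 TPM when rescaled over protein-coding and long noncoding genes, and 16.1 to 18.2 TPM leaving out either library. The median retained-intron share, 32.5%, was 45.5% by expected counts, and 24.1% to 41.0% leaving out either library. The number of promoters with a pyrimidine run, 2, was 5 with runs of 5, 1 with runs of 9 and 2 within 25 bases. The 8 snoRNA identifiers with counts in both libraries became 0 in the second table, an alternative added after seeing the data. For single members, 18 of 18 level alternatives, 9 of 18 retained-intron shares and 19 of 27 leading-transcript shares moved by more than 1 SD of the 2 libraries; leaving out 1 of 2 libraries cannot do so and was not counted. No paired analysis was possible because there is 1 group. Depth limits the 7 hosts with 113 to 945 counts, and the short snoRNAs could not be quantified at all.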
